A study of Homo sapiens with 24 samples.

Results

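The genes described here make, salvage and consume nicotinamide adenine dinucleotide (NAD). They are 10 of the 60279 genes listed in each count table of the series: NMRK1, NMRK2, NAMPT, NAPRT, NNMT, NMNAT1, NMNAT2, NMNAT3, QPRT and CD38. Each was found by its Ensembl identifier. The set brings together genes of one function and was chosen with earlier results of these data known. NMRK2 was chosen by its own counts, which are near the floor in most groups, so the levels of NMRK2 are given as a description with no test.

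NAD carries electrons in metabolism and is broken down by enzymes that use it as a substrate, so cells rebuild it continuously. NAMPT, the main salvage enzyme, turns nicotinamide into nicotinamide mononucleotide (NMN), and the kinases NMRK1 and NMRK2 make NMN from nicotinamide riboside. NAPRT starts from nicotinic acid and QPRT from quinolinic acid, a product of tryptophan breakdown. The NMNAT enzymes complete the dinucleotide, NNMT removes nicotinamide by methylation, and CD38 cleaves NAD. NMRK1 is expressed in most tissues, whereas NMRK2 is best known from skeletal and heart muscle.

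Poly(A) RNA was sequenced from SW872, an established human liposarcoma line that was infected with a retroviral vector and kept as pooled, G418-resistant cells. The 24 libraries formed 8 groups of 3, and each replicate was transduced separately. EV carried the empty vector, TAZ-CAMTA1 and YAP-TFE3 carried the fusion proteins found in epithelioid hemangioendothelioma, and TFE3 and CAMTA1 carried their full length C-terminal partners. TAZ4SA and YAP5SA carried TAZ and YAP, 2 transcriptional coactivators of the Hippo pathway, with serine-to-alanine substitutions that free them from inhibition by that pathway. CAMTA1 and a second empty vector group, EVsub, were collected at sub-confluence, and the other groups 48 h after confluence. Each expressed protein was Flag-tagged and driven by a viral promoter, and all 8 groups were derived from the same line.

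Totals ranged from 19700277 to 35287476 counts per library. Counts of TFE3 averaged 336 CPM (counts scaled to library size, per 1e6 counts) in the TFE3 libraries and 283 CPM in YAP-TFE3, against 119 CPM in EV. CAMTA1 reached 123 CPM in its own libraries and 144 CPM in TAZ-CAMTA1, against 21.4 CPM in EV, and YAP1 averaged 253 CPM in YAP5SA against 128 CPM. WWTR1, which encodes TAZ, went against the label: the 3 libraries labelled TAZ4SA held 135, 134 and 134 CPM against 225, 203 and 184 CPM in EV. WWTR1 was also lower than in EV in YAP5SA, at 68.7 CPM, and in YAP-TFE3, at 126 CPM, which carry no TAZ construct. TAZ-CAMTA1, which does carry part of TAZ, held 180, 183 and 179 CPM, so its gene count did not show the construct either. The paper presents a western blot of Flag-tagged TAZ4SA in SW872 cells. Why the gene count was low was not tested. All 7 mesenchymal markers were above 3 counts in at least 1 library of every group, while of 8 adipocyte markers ADIPOQ, CIDEC and LEP were at or below 3 counts in each library of all groups, and FABP4 in each library outside YAP-TFE3. Replicate 3 of YAP-TFE3 stood apart from replicates 1 and 2, with a chi-square per gene of 72.2 and 56.2 against 3.33 to 27.8 between any other replicates of one group, so results that rest on it are given with and without it. These are bulk samples, in which fewer cells of a type and less RNA per cell cannot be told apart.

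On the scale of mean CPM per kilobase of the canonical transcript, which allows a rough comparison of different genes, the salvage and synthesis genes spanned a wide range in EV. Counts are per gene, so the order of genes depends on the length taken. QPRT, at 128, and NNMT, at 62.6, were the most abundant of the 10 genes, followed by NAMPT at 19.5 and NAPRT at 11.6. NMNAT1, the nuclear enzyme, stood at 4.20, above NMRK1 at 3.05, CD38 at 0.566, NMNAT2 at 0.266 and NMNAT3 at 0.0752. NMRK2 was the lowest, at 0.0487 CPM per kb. In YAP-TFE3 the kinases were close on this scale, with 7.22 CPM per kb for NMRK2 and 7.82 CPM per kb for NMRK1. That closeness rests on canonical lengths of 1160 bases for NMRK2 and 1754 bases for NMRK1. All annotated exons span 1175 bases in NMRK2 and 3865 bases in NMRK1, a length that would place NMRK1 lower.

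**Figure D1:**
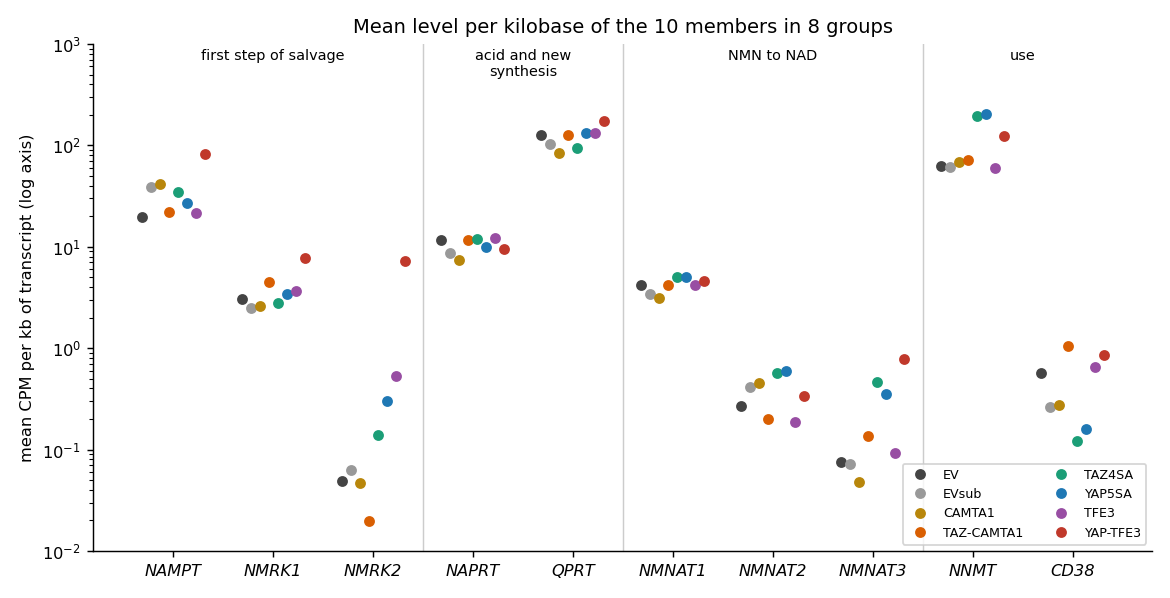
Mean CPM per kilobase of transcript (vertical axis, log scale) of the 10 genes, 1 point per group, arranged by their step in NAD metabolism. NMRK2 spans 0.0197 to 7.22 CPM per kb across the groups, while NAPRT and NMNAT1 stay within 7.37 to 12.2 and 3.13 to 5.01 CPM per kb.

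NMRK2 (ENSG00000077009, GRCh38 chr19:3933069-3942416, plus strand) was counted mainly in YAP-TFE3. Its counts in replicates 1 to 3 were 261, 284 and 268 in YAP-TFE3, and the replicate that stood apart in other genes did not stand apart here. TFE3 held 14, 18 and 28 counts and YAP5SA 6, 5 and 13 counts. Every TFE3 library therefore lay above every EV, EVsub, CAMTA1, TAZ-CAMTA1 and TAZ4SA library and far below every YAP-TFE3 library. The libraries labelled TAZ4SA held 7, 2 and 3 counts. At the bottom, EV held 1, 1 and 2 counts, CAMTA1 1, 1 and 2, EVsub 1, 4 and 0 and TAZ-CAMTA1 0, 2 and 0, so that these 4 groups were at or near the floor of 3 counts per library.

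**Figure D2:**
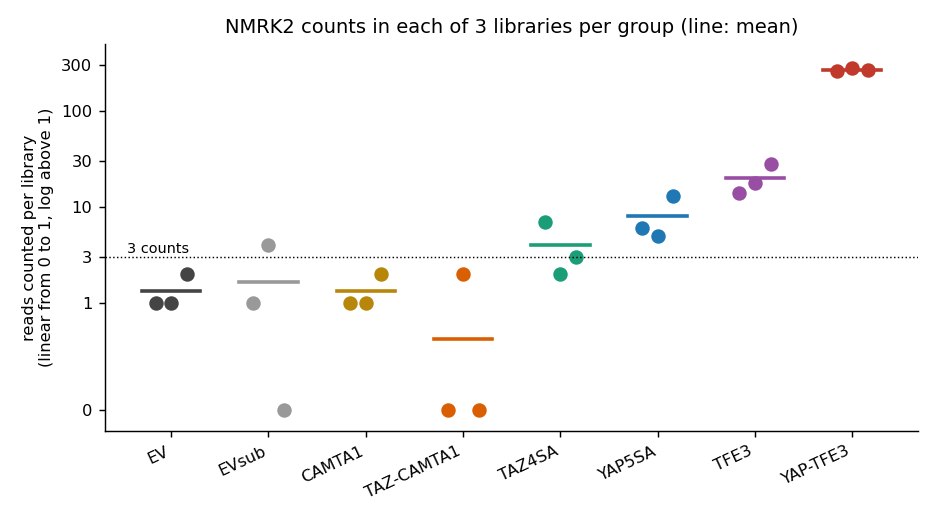
Counts of NMRK2 per library (vertical axis, linear from 0 to 1 and logarithmic above) in the 8 groups, with 1 point per library, a line at the group mean and a dotted line at 3 counts. The YAP-TFE3 libraries hold 261 to 284 counts, the TFE3 libraries 14 to 28, and no EV, CAMTA1 or TAZ-CAMTA1 library more than 2.

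Scaled to library size, NMRK2 averaged 8.38 ± 0.589 CPM (SD, n = 3) in YAP-TFE3, 0.620 ± 0.260 CPM in TFE3, 0.348 ± 0.153 CPM in YAP5SA, 0.161 ± 0.105 CPM in TAZ4SA and 0.0565 ± 0.0350 CPM in EV. In the order of the group means only the step from YAP-TFE3 down to TFE3 separated all libraries, and each lower neighbour in that order overlapped the next. With the counts of each group pooled, the level in YAP-TFE3 was 13.7 times that in TFE3 (95% exact counting interval 10.5 to 18.1) and 23.4 times that in YAP5SA (15.6 to 36.7). Against EV, whose 3 libraries held 4 counts in all, the ratio was 159 (61.7 to 584) for YAP-TFE3, 11.6 (4.30 to 43.9) for TFE3, 6.78 (2.33 to 26.9) for YAP5SA and 3.07 (0.931 to 13.1) for TAZ4SA. The ratio of TFE3 to YAP5SA was 1.71 (1.05 to 2.87), and their libraries overlapped in CPM. The intervals cover counting error and not the spread between replicates, and with so few counts in EV they are wide. They describe values that entered the choice of NMRK2 and are no test.

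All 10 genes passed the filter of a mean of 5 counts over the 24 libraries, but NMRK2 did so with a mean of 38.5 counts that dropped to 5.29 counts without the YAP-TFE3 libraries. Another annotated gene, ENSG00000289254, overlaps NMRK2 on the opposite strand, and whether strand was used in counting was not stated. Striated muscle markers, included because NMRK2 is known from muscle, summed to 4.54 to 4.61 CPM over 9 genes in YAP-TFE3, 5.48 to 6.14 CPM in EV, 21.8 to 45.8 CPM in TAZ4SA and 11.7 to 36.5 CPM in YAP5SA. In at least 1 library of the group, 6 of the 9 were above 3 counts in YAP-TFE3 and 4 in EV, where ACTA1 and MYH7 were not. MYF5, MYOG and TNNT2 were at or below 3 counts in both groups. The part of muscle gene expression in the counts of NMRK2 was not tested.

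TFE3 belongs to a family of basic helix-loop-helix factors that bind the E-box CACGTG, a palindrome that reads the same on both strands. Within 2000 bases on each side of the start of the canonical transcript, NMRK2 had 3 such matches, which are shown because NMRK2 had most counts under the TFE3 fusion. Of 20033 protein-coding genes, 43.6% had at least 1 match in such a window and 3.52% had 3 or more. The cut of 3 is the number found for NMRK2, a gene chosen by its counts, so this share is a description and no test. In the reference sequence (hg38), with the E-box in capitals and 10 bases on each side, on the strand of the gene, the matches were:
NMRK2 at -1797, chr19:3931259-3931284, upstream of the gene: ggccctgggcCACGTGccccaccaag
NMRK2 at -1065, chr19:3931991-3932016, upstream of the gene: gaggaatcatCACGTGaggccaggag
NMRK2 at 1272, chr19:3934328-3934353, intron: cggggactgaCACGTGggcaggtggg
NMRK1 at 589, chr9:75087554-75087579, exon: tactttgtgaCACGTGaaaattacat
NMNAT3 at 335, chr3:139677625-139677650, intron: tgcccgggccCACGTGactcctggcc

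Positions count from the start site to the middle of the match. NMRK1 and NMNAT3 are shown because, as for NMRK2, every YAP-TFE3 library lay above all libraries of the other groups. NAMPT and QPRT also had their highest mean in YAP-TFE3, and neither had a match. In all, 6 of the 10 genes had a match, the others being NMNAT2, NNMT and NAPRT with 1 each, while CD38 and NMNAT1 had none either. Shorter windows of 250 bases upstream of RefSeq start sites, on the same build, were available for 7 of the 10 genes. RefSeq starts can differ from the canonical starts used above. The NMRK2 window (chr19:3933339-3933588), those of QPRT and NAMPT and 1 of the 2 NMNAT2 windows (chr1:183304875-183305124) lay inside the annotated gene. These NMRK2 and NMNAT2 windows are thus not the bases upstream of the canonical start. For QPRT and NAMPT the place of the canonical start was not checked. The windows held none of the letters CACGTG or TCATGTG (an M-box), which occur in 6.34% and 2.52% of 35116 such windows. The letters GGAATG, found at TEAD sites and in 11.9% of windows, occurred only in the NMNAT2 window that lay inside the gene. TGANTCA (AP-1, 6.57% of windows) occurred in no window of these genes. Both strands were searched. These matches describe letters in the reference and not sites of binding.

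The genes whose pattern was most like that of NMRK2, by Pearson correlation of log2 CPM over the 24 libraries, were RRAGD (r = 0.920), PPARGC1A (0.918), SPINK1 (0.916), LINC01278 (0.915) and NEU1 (0.913). RRAGD averaged 109 CPM in YAP-TFE3, 8.26 CPM in TFE3 and at most 5.21 CPM in any other group. PPARGC1A, a coactivator of mitochondrial genes, averaged 9.01 CPM in YAP-TFE3 against 0.618 CPM in TFE3 and 0.420 CPM in EV. NEU1, a lysosomal sialidase, averaged 92.9 CPM in YAP-TFE3, 37.3 CPM in TFE3 and 29.2 CPM in EV. SPINK1 averaged 2.26 CPM in YAP-TFE3 and at most 0.0631 CPM in any other group, and LINC01278 58.2 CPM against 29.0 CPM in TFE3 and 25.6 CPM in EV. As NMRK2 was chosen by its counts and is near the floor in most groups, the ranking largely picks genes that are high in YAP-TFE3. The points of such a correlation share libraries and group structure, and it is given as a description.

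The other 9 genes were tested in each comparison with edgeR's quasi-likelihood test over the 19997 genes whose mean count was 5 or more, and a gene was called at a Benjamini-Hochberg adjusted p below 0.05. In YAP-TFE3 against EV, 5 of the 9 genes were called, all higher, where 48.2% of all tested genes were called (25.6% higher and 22.6% lower). In TAZ4SA against EV, 6 were called (4 higher and 2 lower, beside 49.2% of all genes, 25.1% higher and 24.2% lower), and in YAP5SA against EV 4 were called (3 higher and 1 lower, beside 44.3%, 22.7% higher and 21.6% lower). TAZ-CAMTA1 against EV gave 2 called genes, both higher (4.98% of all genes, 3.55% higher and 1.44% lower). EVsub against EV, which carry the same empty vector at different confluence, gave 4 (1 higher and 3 lower, beside 36.8%, 19.8% higher and 17.1% lower). None was called for TFE3 against EV (0.035% of all genes) or for CAMTA1 against EVsub (1.83%), none of the 9 had an unadjusted p below 0.05 in either comparison, and DESeq2 also called 0. In YAP-TFE3, TAZ4SA and YAP5SA the share of members called was thus read against a background in which over 44% of all genes were called. The median log2 difference of the 9 genes was 0.57 in YAP-TFE3, 0.26 in TAZ4SA and 0.25 in YAP5SA, beside -0.01, -0.03 and -0.04 over all tested genes. The comparisons with EV share the same 3 EV libraries.

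**Figure D3:**
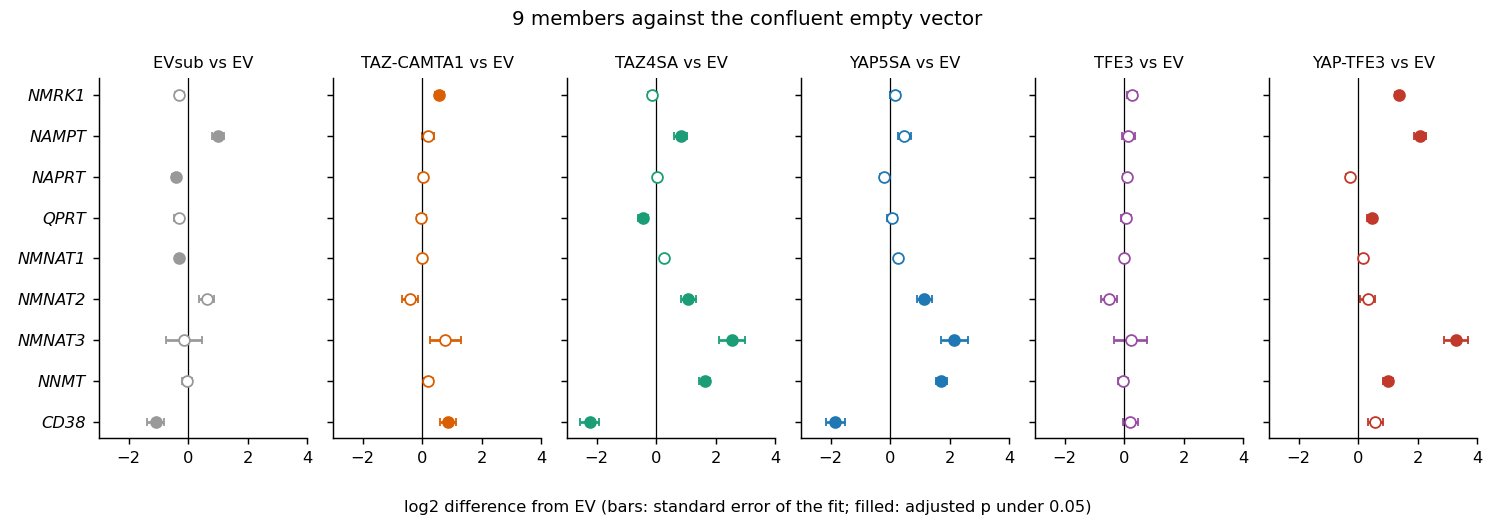
Log2 difference from EV (horizontal axis) of the 9 tested genes in 6 comparisons, with the standard error of the fit as bars. Filled points have an adjusted p below 0.05 and open points do not. NMNAT3, NAMPT and NMRK1 lie furthest to the right in YAP-TFE3, at 3.28, 2.07 and 1.36, and CD38 furthest to the left in TAZ4SA and YAP5SA, at -2.24 and -1.85.

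NMRK1 (ENSG00000106733, chr9:75060573-75088217, minus strand), the widely expressed nicotinamide riboside kinase, rose in YAP-TFE3. Its libraries held 14.2, 14.2 and 12.8 CPM, against 5.11, 4.87 and 6.06 CPM in EV, 5.43, 5.60 and 8.13 CPM in TFE3 and 5.90, 5.52 and 6.47 CPM in YAP5SA. All YAP-TFE3 libraries lay above those of every other group. The log2 difference of YAP-TFE3 from EV was 1.36 ± 0.15, adjusted p = 5.57e-08, a fold of 2.57, and without YAP-TFE3 replicate 3 it was 1.42 ± 0.16, adjusted p = 9.23e-08. TAZ-CAMTA1 came second, with 8.48, 6.71 and 8.51 CPM, and its libraries did not overlap those of EV. That difference was smaller (0.57 ± 0.15, adjusted p = 0.0271) and lost its call in 4 of 6 fits with a library left out: without EV replicate 1 (0.54, adjusted p = 0.0977), without EV replicate 2 (0.51, adjusted p = 0.145), without TAZ-CAMTA1 replicate 1 (0.50, adjusted p = 0.0927) and without TAZ-CAMTA1 replicate 3 (0.51, adjusted p = 0.130). In TAZ4SA, YAP5SA and TFE3 the values were -0.13, 0.16 and 0.26 on the log2 scale, and none was called.

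NAMPT (ENSG00000105835, chr7:106248298-106285966, minus strand), the salvage enzyme, was higher in several groups. YAP-TFE3 held 491, 389 and 190.0 CPM and EV 90.6, 82.1 and 81.9 CPM, so replicate 3 of YAP-TFE3 stood well below replicates 1 and 2. This replicate was still above every EV library and slightly above every EVsub library, but within the range of CAMTA1. The log2 difference from EV was 2.07 ± 0.21, adjusted p = 2.32e-08 (fold 4.20), and 2.38 ± 0.15, adjusted p = 5.30e-12 without replicate 3. NAMPT also rose at sub-confluence, with 187, 153 and 168 CPM in EVsub, which is 0.99 ± 0.21, adjusted p = 7.10e-04 against EV. CAMTA1, collected at the same stage, held 193, 179.7 and 167 CPM and differed from EVsub by only 0.09 ± 0.20 (adjusted p = 0.941). TAZ4SA held 127, 145 and 178 CPM and was called (0.82 ± 0.21, adjusted p = 0.00218). YAP5SA held 122, 96.6 and 136 CPM, all above EV, and missed the threshold (0.48 ± 0.21, adjusted p = 0.0648), with a call in DESeq2 (adjusted p = 0.0492) and without YAP5SA replicate 2 (0.60, adjusted p = 0.0378). It was also called with only the groups compared (0.47, adjusted p = 0.00328) and with no filter beyond 1 count (0.45, adjusted p = 0.0401). For TAZ-CAMTA1 and TFE3 the values were 0.19 and 0.14, without a call.

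Counts of NAMPT are uncertain because a processed copy, NAMPTP1 on chromosome 10, matches it at 99.2% of 1451 aligned bases, and how reads with several alignments were counted was not stated. NAMPTP1 itself held 25.3, 20.2 and 10.3 CPM in YAP-TFE3 against 5.04, 4.49 and 4.99 CPM in EV, with the YAP-TFE3 replicates in the same order as for NAMPT. Over the 24 libraries NAMPTP1 was the gene most like NAMPT (r = 0.982), before CANX (0.974), BACH1 (0.969), PTPDC1 (0.954) and SGTB (0.949). CANX, which encodes the chaperone calnexin, averaged 893 CPM in YAP-TFE3, 669 CPM in CAMTA1, 619 CPM in EVsub and 484 CPM in EV.

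NAPRT (ENSG00000147813), which opens the nicotinic acid route, varied little. EV held 17.6, 20.1 and 20.8 CPM, TFE3 22.1, 18.9 and 20.7 CPM and YAP-TFE3 15.4, 17.4 and 15.0 CPM. It fell at sub-confluence, with 14.7, 14.1 and 14.9 CPM in EVsub (-0.42 ± 0.13, adjusted p = 0.0129), a call lost without EV replicate 3 (-0.37, adjusted p = 0.0573). The YAP-TFE3 libraries lay below the EV libraries, yet the difference did not pass (-0.29 ± 0.13, adjusted p = 0.0633). It passed when libraries were scaled by their totals (-0.37, adjusted p = 0.0168), without EV replicate 1 (-0.36, adjusted p = 0.0431) and without YAP-TFE3 replicate 2 (-0.35, adjusted p = 0.0496).

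QPRT (ENSG00000103485, chr16:29663279-29698699, plus strand), which starts from a product of tryptophan breakdown, was one of the most abundant of the 10 genes. It differed from EV by less than 0.5 on the log2 scale in every group compared with EV. YAP-TFE3 held 304, 361 and 486 CPM, EV 258, 275 and 311 CPM and TAZ4SA 227, 215 and 178 CPM. The highest value came from YAP-TFE3 replicate 3, and the lowest YAP-TFE3 library lay within the range of EV. The rise in YAP-TFE3 (0.45 ± 0.16, adjusted p = 0.0221) was lost without EV replicate 1 (0.39, adjusted p = 0.0862), without EV replicate 2 (0.43, adjusted p = 0.0619) and without YAP-TFE3 replicate 3 (0.25, adjusted p = 0.196). The fall in TAZ4SA (-0.44 ± 0.16, adjusted p = 0.0246) was lost without EV replicate 3 (-0.36, adjusted p = 0.0984) and without TAZ4SA replicate 3 (-0.34, adjusted p = 0.114). EVsub held 210, 240 and 227 CPM, all below EV, without a call in the joint fit. That fall was called with scaling by totals (-0.38, adjusted p = 0.0481) and with only the groups compared (-0.33, adjusted p = 0.00449). QPRT overlaps SPN on the same strand, so reads of the shared stretch cannot be assigned with certainty.

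The enzymes that complete NAD fell into separate patterns. NMNAT1 (ENSG00000173614), the nuclear enzyme, averaged between 11.7 CPM in CAMTA1 and 18.7 CPM in TAZ4SA. Its only call against EV was a fall at sub-confluence, 12.1, 13.9 and 12.1 CPM in EVsub against 14.2, 15.8 and 17.0 CPM (-0.30 ± 0.11, adjusted p = 0.0306), which was lost without EV replicate 2 (-0.30, adjusted p = 0.0748), without EV replicate 3 (-0.25, adjusted p = 0.133), without EVsub replicate 1 (-0.27, adjusted p = 0.109) and without EVsub replicate 3 (-0.27, adjusted p = 0.106). The values for TAZ4SA (0.26 ± 0.11, adjusted p = 0.0504) and YAP5SA (0.25 ± 0.11, adjusted p = 0.0593) lay just outside the threshold and passed in DESeq2 (adjusted p = 0.0444 and 0.0415). Both also passed without EV replicate 3 (0.32, adjusted p = 0.0348, and 0.31, adjusted p = 0.0416), and YAP5SA without YAP5SA replicate 2 (0.32, adjusted p = 0.0316).

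NMNAT2 (ENSG00000157064), an enzyme of the Golgi and cytosol best known from axons, rose in TAZ4SA and YAP5SA. TAZ4SA held 2.69, 3.91 and 2.70 CPM and YAP5SA 3.82, 2.57 and 3.25 CPM, against 1.41, 1.68 and 1.26 CPM in EV, without overlap. The log2 differences were 1.08 ± 0.25, adjusted p = 9.12e-04, and 1.14 ± 0.25, adjusted p = 6.66e-04. The sub-confluent libraries were above all EV libraries too, with 2.21, 2.16 and 2.36 CPM in EVsub and 2.92, 2.74 and 1.72 CPM in CAMTA1. EVsub against EV was not called in the joint fit but was with only the groups compared (0.61, adjusted p = 0.0171). In YAP-TFE3, with 1.88, 2.42 and 1.16 CPM, the difference was 0.31 ± 0.25, adjusted p = 0.327, and without replicate 3 it was 0.56 ± 0.24, adjusted p = 0.0598. TAZ-CAMTA1 (0.947, 0.993 and 1.32 CPM) and TFE3 (1.20, 0.903 and 0.976 CPM) had the lowest means of the 8 groups, and neither was called.

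NMNAT3 (ENSG00000163864), the mitochondrial form, was scarce in EV, with 6, 4 and 2 counts, and in EVsub, CAMTA1 and TFE3, where the highest library held 11 counts. YAP-TFE3 held 47, 52 and 53 counts, TAZ4SA 14, 23 and 33 and YAP5SA 18, 12 and 18. All libraries of these 3 groups were above all EV libraries. On the log2 scale the differences from EV were 3.28 ± 0.40, adjusted p = 3.35e-07 in YAP-TFE3, 2.55 ± 0.44, adjusted p = 3.85e-05 in TAZ4SA and 2.15 ± 0.46, adjusted p = 5.43e-04 in YAP5SA. YAP-TFE3 replicate 3 did not stand apart for NMNAT3. TAZ-CAMTA1, with 7, 10 and 7 counts, also lay above EV in every library but was not called (0.78 ± 0.53, adjusted p = 0.471). Other annotated genes overlap NMNAT3 on both strands.

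**Figure D4:**
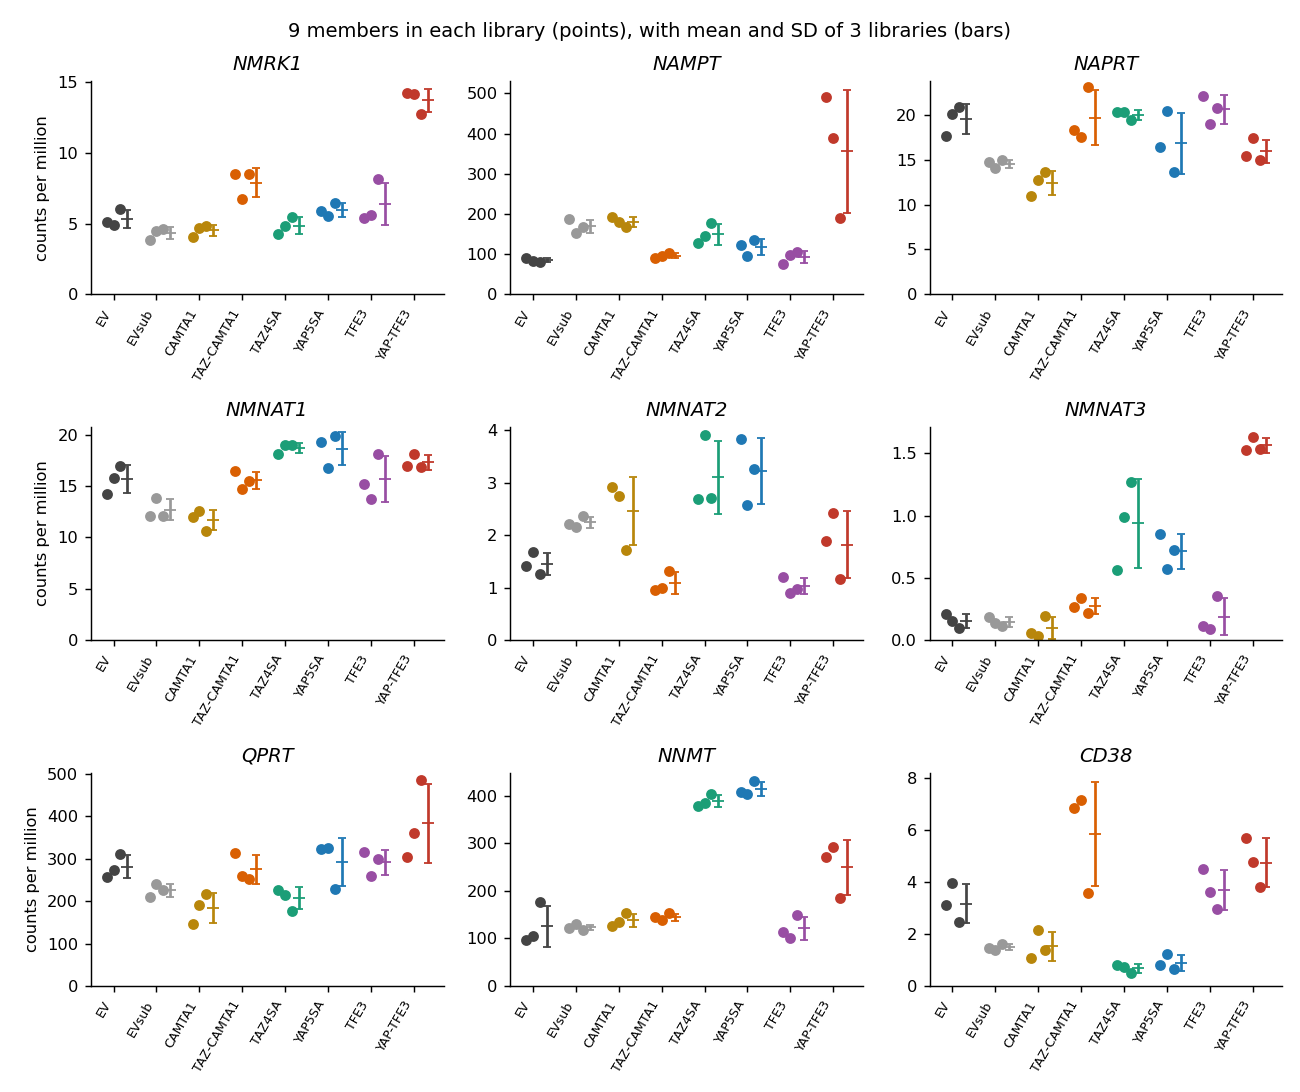
CPM (vertical axes, from 0) of the 9 tested genes in each library of the 8 groups, with 1 point per library and the mean and SD of 3 libraries as bars. YAP-TFE3 is highest for NMRK1 and NMNAT3, TAZ4SA and YAP5SA are highest for NNMT at 379 to 431 CPM and lowest for CD38, and the YAP-TFE3 points of NAMPT are spread from 190.0 to 491 CPM.

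Of the genes that draw on NAD or its precursor, NNMT (ENSG00000166741, chr11:114257787-114313536, plus strand), which methylates nicotinamide, rose in TAZ4SA, YAP5SA and YAP-TFE3. TAZ4SA held 379, 384 and 403 CPM and YAP5SA 407, 404 and 431 CPM, against 97.0, 105 and 176 CPM in EV. YAP-TFE3 held 272, 292 and 184 CPM, an intermediate level that overlapped neither EV nor TAZ4SA. The log2 differences from EV were 1.72 ± 0.17, adjusted p = 1.93e-08 for YAP5SA, 1.63 ± 0.17, adjusted p = 4.42e-08 for TAZ4SA and 0.99 ± 0.17, adjusted p = 4.07e-05 for YAP-TFE3, the last being 1.17 ± 0.16, adjusted p = 2.83e-06 without YAP-TFE3 replicate 3. TAZ-CAMTA1, with 144, 138 and 153 CPM, was not called (0.21 ± 0.17, adjusted p = 0.574), nor were TFE3 (-0.05) and EVsub (-0.03). The genes most like NNMT over the 24 libraries were RAB11FIP1 (r = 0.971), CTIF (0.970), SLC1A4 (0.967), SPX (0.967) and LURAP1L-AS1 (0.966). SLC1A4, a transporter of neutral amino acids, averaged 119 CPM in TAZ4SA and 125 CPM in YAP5SA against 33.8 CPM in EV.

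CD38 (ENSG00000004468, chr4:15778275-15853232, plus strand), the NAD glycohydrolase, went the other way. TAZ4SA held 20, 17 and 13 counts and YAP5SA 17, 26 and 16, against 90, 104 and 51 in EV, without overlap in CPM. It fell by 2.24 on the log2 scale in TAZ4SA (SE 0.33, adjusted p = 5.43e-06) and by 1.85 in YAP5SA (SE 0.32, adjusted p = 5.14e-05). EVsub, with 38, 31 and 57 counts, was lower too (-1.09 ± 0.29, adjusted p = 0.00469). TAZ-CAMTA1 held 181, 209 and 116 counts and overlapped EV in CPM. Its call (0.87 ± 0.26, adjusted p = 0.0498) was lost without EV replicate 1 (0.84, adjusted p = 0.128), without EV replicate 2 (1.05, adjusted p = 0.0550), without EV replicate 3 (0.73, adjusted p = 0.202), without TAZ-CAMTA1 replicate 1 (0.73, adjusted p = 0.162) and without TAZ-CAMTA1 replicate 2 (0.69, adjusted p = 0.216). YAP-TFE3, with 175, 152 and 132 counts, was not called (0.57 ± 0.26, adjusted p = 0.0708) but was without EV replicate 2 (0.76, adjusted p = 0.0420) and without YAP-TFE3 replicate 3 (0.71, adjusted p = 0.0348). CD38 is also a leukocyte antigen. Of 6 leukocyte markers, 5 were above 3 counts in at least 1 library of each group (4 in YAP5SA), with PTPRC at or below 3 counts throughout, and their sum ranged from 1.78 to 3.68 CPM over the 24 libraries. Their part in the counts of CD38 was not tested.

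The groups also differed in cell type markers. The 5 epithelial markers summed to 1886 to 2154 CPM in TAZ4SA and 3011 to 4022 CPM in YAP5SA, against 198 to 214 CPM in EV, and the 7 mesenchymal markers to 1923 to 2921 and 2013 to 3625 CPM against 4829 to 5726 CPM. In EVsub, the epithelial sum was 415 to 444 CPM and the mesenchymal sum 2758 to 2953 CPM. In YAP-TFE3 they were 243 to 352 CPM and 4166 to 5645 CPM. The sums do not hold for each marker. KRT19, 1 of the 5 epithelial markers, was at or below 3 counts in each library of TAZ4SA, YAP5SA, YAP-TFE3 and EV. It was above 3 counts in at least 1 library of EVsub, CAMTA1, TAZ-CAMTA1 and TFE3. CDH1 was at or below 3 counts in each EV library. The 8 adipocyte markers summed to 304 to 370 CPM in YAP-TFE3, 149 to 223 CPM in EV, 64.2 to 74.5 CPM in TAZ4SA and 118 to 132 CPM in YAP5SA. The part of these shifts in the values of the 10 genes was not tested.

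Comparing each fusion with its parts asks where it departs from activated TAZ or YAP and from its C-terminal partner. In YAP-TFE3 against TFE3, 7 of the 9 genes were called (6 higher and 1 lower, beside 48% of all genes, 25.4% higher and 22.5% lower), and 5 without YAP-TFE3 replicate 3. NMNAT3 (3.06 ± 0.37), NAMPT (1.93 ± 0.21), NMRK1 (1.10 ± 0.14), NNMT (1.04 ± 0.17) and NMNAT2 (0.82 ± 0.26) were higher with the fusion, with adjusted p from 6.20e-08 to 0.0113. NMNAT2 lost its call without YAP-TFE3 replicate 2 (0.56, adjusted p = 0.106). NAPRT was lower (-0.37 ± 0.13, adjusted p = 0.0181), a call lost without TFE3 replicate 1 (-0.32, adjusted p = 0.0724), without YAP-TFE3 replicate 1 (-0.34, adjusted p = 0.0554) and without YAP-TFE3 replicate 3 (-0.33, adjusted p = 0.0564). QPRT (0.40 ± 0.16, adjusted p = 0.0420) lost its call without TFE3 replicate 2 (0.32, adjusted p = 0.155), without TFE3 replicate 3 (0.42, adjusted p = 0.0685), without YAP-TFE3 replicate 2 (0.44, adjusted p = 0.0504) and without YAP-TFE3 replicate 3 (0.19, adjusted p = 0.315).

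In YAP-TFE3 against YAP5SA, 7 of the 9 genes were called (5 higher and 2 lower, beside 52.4% of all genes, 28.1% higher and 24.3% lower), and 6 without YAP-TFE3 replicate 3. CD38 (2.42 ± 0.31, adjusted p = 5.26e-07), NAMPT (1.59 ± 0.21, adjusted p = 8.44e-07), NMRK1 (1.20 ± 0.15, adjusted p = 3.18e-07) and NMNAT3 (1.12 ± 0.31, adjusted p = 0.00416) were higher in the fusion. NNMT (-0.73 ± 0.17, adjusted p = 8.80e-04) and NMNAT2 (-0.83 ± 0.24, adjusted p = 0.00520) were lower. The fusion thus carried more RNA of the salvage kinase and of NAMPT than activated YAP, and less of NNMT. Without YAP-TFE3 replicate 3, NNMT stood at -0.55 ± 0.17, adjusted p = 0.00828, and NMNAT2 at -0.58 ± 0.23, adjusted p = 0.0389. QPRT (0.39 ± 0.16, adjusted p = 0.0415) lost its call without YAP-TFE3 replicate 3 (0.19, adjusted p = 0.324) and without YAP5SA replicate 3 (0.24, adjusted p = 0.232).

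TAZ-CAMTA1 departed from the libraries labelled TAZ4SA in 8 of the 9 genes (3 higher and 5 lower, beside 53.7% of all genes, 26.9% higher and 26.8% lower), and in 5 without TAZ4SA replicate 3. CD38 was higher in the fusion by 3.10 ± 0.31 on the log2 scale (adjusted p = 1.82e-08, fold 8.59), and NMRK1 by 0.70 ± 0.15 (adjusted p = 4.57e-04). NMNAT3 (-1.77 ± 0.38), NMNAT2 (-1.49 ± 0.25) and NNMT (-1.42 ± 0.17) were lower, with adjusted p of 4.07e-04 or less. NAMPT (-0.63 ± 0.21, adjusted p = 0.0124) lost its call without TAZ4SA replicate 3 (-0.49, adjusted p = 0.0702) and when libraries were scaled by their totals (-0.44, adjusted p = 0.101). QPRT (0.41 ± 0.16, adjusted p = 0.0316) lost its call without TAZ-CAMTA1 replicate 1 (0.29, adjusted p = 0.176), without TAZ4SA replicate 2 (0.44, adjusted p = 0.0516) and without TAZ4SA replicate 3 (0.32, adjusted p = 0.139). NMNAT1 (-0.27 ± 0.11, adjusted p = 0.0393) stood at -0.07 (adjusted p = 0.625) with scaling by totals, and lost its call without TAZ-CAMTA1 replicate 2 (-0.23, adjusted p = 0.129), without TAZ4SA replicate 1 (-0.29, adjusted p = 0.0532), without TAZ4SA replicate 2 (-0.25, adjusted p = 0.0914) and without TAZ4SA replicate 3 (-0.26, adjusted p = 0.0808).

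Between the fusions, 6 of the 9 genes were called, all higher in YAP-TFE3 than in TAZ-CAMTA1 (42.7% of all genes, 22.8% higher and 19.9% lower), and 5 without YAP-TFE3 replicate 3. NMNAT3 (2.50 ± 0.35, adjusted p = 3.21e-06), NAMPT (1.88 ± 0.21, adjusted p = 1.23e-07), NMRK1 (0.80 ± 0.14, adjusted p = 7.99e-05) and NNMT (0.78 ± 0.17, adjusted p = 6.36e-04) differed most. NMRK2, which was not tested, held 813 counts over the YAP-TFE3 libraries and 2 over the TAZ-CAMTA1 libraries. NMNAT2 (0.73 ± 0.26, adjusted p = 0.0266) lost its call without TAZ-CAMTA1 replicate 1 (0.65, adjusted p = 0.0858), without TAZ-CAMTA1 replicate 2 (0.66, adjusted p = 0.0861), without YAP-TFE3 replicate 1 (0.70, adjusted p = 0.0614) and without YAP-TFE3 replicate 2 (0.47, adjusted p = 0.196). QPRT (0.48 ± 0.16, adjusted p = 0.0176) lost its call without TAZ-CAMTA1 replicate 2 (0.44, adjusted p = 0.0648), without TAZ-CAMTA1 replicate 3 (0.43, adjusted p = 0.0680) and without YAP-TFE3 replicate 3 (0.27, adjusted p = 0.159). CD38 did not differ past the threshold between them (-0.30 ± 0.24, adjusted p = 0.348).

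A wider set of 58 genes of NAD metabolism, in 5 lists by function, was read from the same tests, and 50 of them had a mean of at least 5 counts. Of the 50, 25 were called in YAP-TFE3 against EV, 25 in TAZ4SA, 22 in YAP5SA, 27 in EVsub, 1 in TAZ-CAMTA1 and 0 in TFE3, shares of 50%, 50%, 44%, 54%, 2% and 0%. The shares over all genes given above were 48.2%, 49.2%, 44.3%, 36.8%, 4.98% and 0.035%. DESeq2 also called 0 of the 50 in TFE3, where 1 had an unadjusted p below 0.05, and CAMTA1 against EVsub gave 0 calls by both tools, with 6 at an unadjusted p below 0.05. In TAZ-CAMTA1 the 1 called gene was PARP8 (1.14 ± 0.26, adjusted p = 0.00913), an enzyme of the PARP family, which use NAD to modify proteins with ADP-ribose. PARP8, which has too few counts for the naming rule and was chosen after its value was seen, lost that call without EV replicate 1, without EV replicate 2 and without TAZ-CAMTA1 replicate 3.

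**Figure D5:**
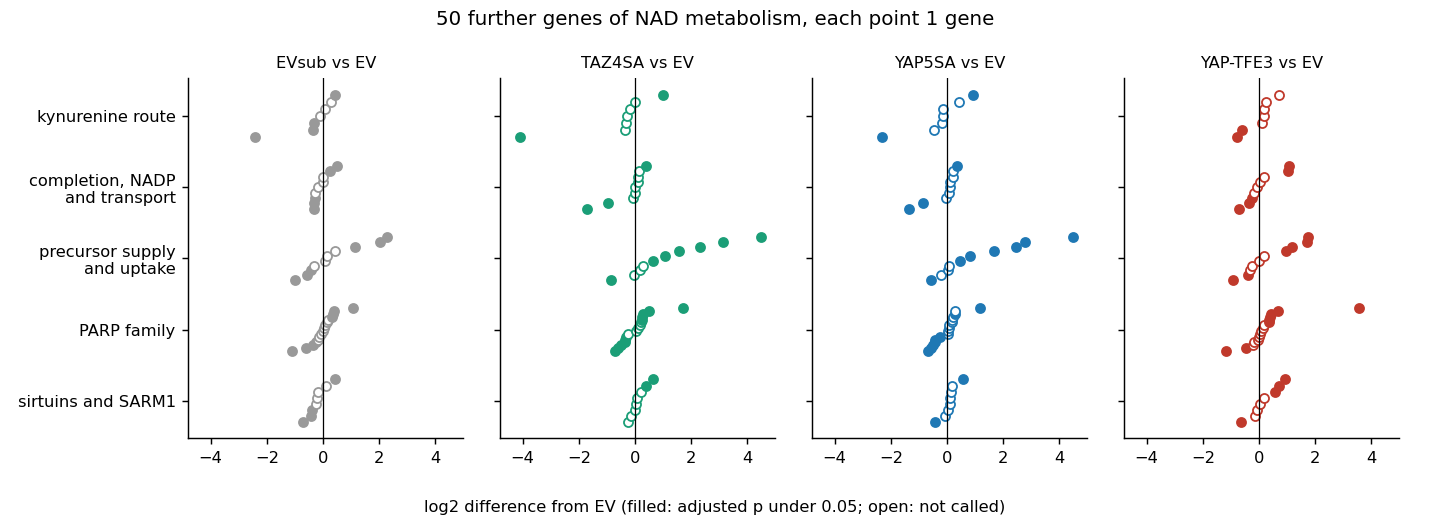
Log2 difference from EV (horizontal axis) of the 50 tested genes of the 5 wider lists in 4 comparisons, each point 1 gene, filled where the adjusted p is below 0.05. AOX1 is the rightmost point in TAZ4SA and YAP5SA at 4.49 and 4.50, and PARP8 the rightmost in YAP-TFE3 at 3.56.

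Precursor supply and uptake, a list of transporters and enzymes that deliver or clear NAD precursors, had 10 tested genes. In TAZ4SA 6 of them rose and 1 fell, with a median log2 difference of 0.85, and in YAP5SA 6 rose and 1 fell (median 0.65). Of all tested genes, 25.1% rose and 24.2% fell in TAZ4SA, and 22.7% rose and 21.6% fell in YAP5SA. AOX1, which oxidises N-methylnicotinamide, the product of NNMT, rose from 0.778 ± 0.0205 CPM (SD, n = 3) in EV to 17.6 ± 2.15 CPM in TAZ4SA (4.49 ± 0.27, adjusted p = 3.46e-12) and 17.7 ± 1.69 CPM in YAP5SA (4.50 ± 0.28, adjusted p = 2.94e-12). The nucleoside transporter SLC29A2 fell (-0.85 ± 0.14 and -0.58 ± 0.14). In YAP-TFE3, 4 rose and 2 fell (beside 25.6% and 22.6% of all genes), and without YAP-TFE3 replicate 3 the split was 4 and 4. The amino acid transporter SLC7A5 rose (1.71 ± 0.23, adjusted p = 1.35e-06, with 642 ± 279 CPM against 197 ± 47.8 CPM), and the nucleoside transporter SLC29A1 fell (-0.94 ± 0.12, adjusted p = 9.73e-07). At sub-confluence 3 rose and 3 fell, beside 19.8% and 17.1% of all genes. There SLC12A8 stood at 12.1 ± 0.422 CPM against 2.51 ± 0.226 CPM (2.27 ± 0.21, adjusted p = 2.23e-07), and SLC29A4 was lower (-1.01 ± 0.16, adjusted p = 4.00e-05).

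The list for completion, phosphorylation and transport of NAD had 9 tested genes. NADK2, the mitochondrial NAD kinase, fell from 127 ± 2.43 CPM in EV to 38.6 ± 2.23 CPM in TAZ4SA (-1.72 ± 0.13, adjusted p = 2.25e-10), 49.0 ± 2.96 CPM in YAP5SA (-1.37 ± 0.13, adjusted p = 8.38e-09) and 77.4 ± 19.7 CPM in YAP-TFE3 (-0.71 ± 0.13, adjusted p = 7.33e-05). NNT, the mitochondrial transhydrogenase that reduces NADP with NADH, rose in YAP-TFE3 from 99.5 ± 6.88 to 206 ± 12.2 CPM (1.05 ± 0.10, adjusted p = 2.89e-09). NADSYN1, which amidates the acid precursor of NAD, rose in TAZ4SA (0.38 ± 0.09) and YAP5SA (0.36 ± 0.09), calls that were lost with scaling by totals (0.18, adjusted p = 0.0924, and 0.18, adjusted p = 0.113). It fell in EVsub (-0.34 ± 0.09), a call lost without EV replicate 3 (-0.20, adjusted p = 0.0932), while NUDT12, a pyrophosphatase acting on NADH, rose there (0.48 ± 0.13, adjusted p = 0.00461).

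In the kynurenine route, which leads from tryptophan to the substrate of QPRT, 7 of 11 genes were tested, and HAAO, KMO, KYNU and ACMSD were too low. Of the 7, 2 were called in each of YAP-TFE3, TAZ4SA and YAP5SA, a share of 28.6% beside 48.2%, 49.2% and 44.3% of all genes. KYAT1, a kynurenine aminotransferase, rose in TAZ4SA (1.00 ± 0.10, adjusted p = 1.40e-08) and YAP5SA (0.91 ± 0.10, adjusted p = 6.30e-08), while AADAT, another aminotransferase, fell in YAP-TFE3 (-0.78 ± 0.16, adjusted p = 2.14e-04). At sub-confluence AFMID, which forms kynurenine, fell (-0.34 ± 0.10, adjusted p = 0.00790), and AADAT rose (0.43 ± 0.15, adjusted p = 0.0285), a call lost with scaling by totals (0.36, adjusted p = 0.0794) and without EV replicate 2 (0.42, adjusted p = 0.0718), without EV replicate 3 (0.35, adjusted p = 0.126), without EVsub replicate 1 (0.31, adjusted p = 0.167), without EVsub replicate 3 (0.44, adjusted p = 0.0550).

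Among the consumers of NAD, 16 of 17 PARP family genes were tested, with 6 higher and 2 lower in YAP-TFE3 (5 and 4 without YAP-TFE3 replicate 3), 5 and 6 in TAZ4SA, and 2 and 6 in YAP5SA. Of all tested genes, 25.6% were higher and 22.6% lower in YAP-TFE3, 25.1% and 24.2% in TAZ4SA, and 22.7% and 21.6% in YAP5SA. PARP8 averaged 11.9 ± 0.234 CPM in YAP-TFE3 against 1.02 ± 0.256 CPM in EV (3.56 ± 0.24, adjusted p = 1.64e-11). PARP1, the abundant nuclear PARP that responds to DNA breaks, fell from 374 ± 13.9 to 166 ± 36.1 CPM (-1.17 ± 0.11, adjusted p = 3.15e-09). In TAZ4SA and YAP5SA the largest falls were of PARP9 (-0.70 ± 0.18 and -0.68 ± 0.18). TIPARP rose in TAZ4SA (0.49 ± 0.13, lost with scaling by totals at 0.30, adjusted p = 0.0734) and PARP2 in YAP5SA (0.29 ± 0.11, lost with scaling by totals at 0.11, adjusted p = 0.442, and without any 1 of EV replicates 1, 2 and 3 or YAP5SA replicates 1 and 3, at 0.24 to 0.30). With scaling by totals the split in TAZ4SA was 1 higher and 7 lower, beside 3355 and 7317 of all genes. TIPARP also rose at sub-confluence (1.08 ± 0.13, adjusted p = 2.88e-06), where PARP10 fell (-0.62 ± 0.11, adjusted p = 1.70e-04).

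All 8 genes of the list of sirtuins and SARM1 were tested. SIRT5, a mitochondrial deacylase, rose in YAP-TFE3 (0.91 ± 0.11, adjusted p = 2.44e-07), TAZ4SA (0.65 ± 0.11, adjusted p = 2.86e-05) and YAP5SA (0.57 ± 0.11, adjusted p = 1.72e-04). SARM1, an NAD hydrolase known from axon degeneration, fell in YAP-TFE3 (-0.65 ± 0.13, adjusted p = 1.98e-04). SIRT1, the nuclear deacetylase, was lower in YAP5SA (-0.43 ± 0.14, adjusted p = 0.0166) and higher in EVsub (0.43 ± 0.14, adjusted p = 0.0183). The call in YAP5SA was lost without EV replicate 1 (-0.39), without YAP5SA replicate 1 (-0.38), without YAP5SA replicate 2 (-0.37), and the call in EVsub with scaling by totals (0.36) and without EV replicate 2 (0.40), without EV replicate 3 (0.42), without EVsub replicate 1 (0.40). SIRT2 fell in EVsub (-0.45 ± 0.13, adjusted p = 0.00780), a call lost without EV replicate 3 (-0.26, adjusted p = 0.106).

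In the comparisons with the fusions, the share of the 50 genes called was 52% in YAP-TFE3 against TFE3, 68% against YAP5SA and 46% against TAZ-CAMTA1, and 60% in TAZ-CAMTA1 against TAZ4SA, beside 48%, 52.4%, 42.7% and 53.7% of all genes. NAXE, which repairs hydrated NADH, was higher in YAP-TFE3 than in TFE3 (1.11 ± 0.10), YAP5SA (0.97 ± 0.10) and TAZ-CAMTA1 (1.11 ± 0.10), and PARP8 likewise (3.56 ± 0.23, 2.41 ± 0.22 and 2.43 ± 0.21). PARP1 was lower than in each of the same groups (-1.11 ± 0.11, -0.91 ± 0.11 and -1.01 ± 0.11), and so was SARM1 (-0.65 ± 0.13, -0.56 ± 0.13 and -0.62 ± 0.13). SLC7A5 was higher than in TFE3 (2.10 ± 0.23) and TAZ-CAMTA1 (1.28 ± 0.23), and AOX1 lower than in YAP5SA (-2.74 ± 0.23). TAZ-CAMTA1 had more NADK2 (1.99 ± 0.13) and SLC29A2 (0.82 ± 0.14) and less AOX1 (-3.93 ± 0.25) and KYAT1 (-0.91 ± 0.10) than the libraries labelled TAZ4SA. The largest adjusted p among these was that of SARM1 against YAP5SA (edgeR, 8.23e-04), and each kept its call with scaling by totals. Those of YAP-TFE3 also kept it without YAP-TFE3 replicate 3. The naming rule picked further genes in these comparisons, and some of those were less firm. TIPARP in TAZ-CAMTA1 against TAZ4SA (-0.47) and KYAT1 in YAP-TFE3 against TFE3 (0.29) lost their calls with scaling by totals. Without YAP-TFE3 replicate 3, KYAT1 lost it too, as did AADAT in YAP-TFE3 against TAZ-CAMTA1 (-0.53). IDO1 in YAP-TFE3 against YAP5SA (0.72) lost its call without YAP5SA replicate 2, YAP5SA replicate 3 or YAP-TFE3 replicate 2.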

How the data were processed

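Poly(A) RNA of SW872 cells was sequenced as stranded, paired-end libraries, 3 per group in 8 groups. The authors aligned reads to hg38 with Hisat2 within bcbio-nextgen and deposited raw counts per Ensembl gene, 1 table per library. The tool that counted reads, whether it used strand, and what it did with reads that align more than once are not given in the sources used here. The authors' own tests used DESeq2 on other estimates.

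From the deposited counts, all 24 libraries were fitted together by group with edgeR 4.0.16 (R 4.3.3, limma 3.58.1), using TMM scaling, quasi-likelihood F tests and Benjamini-Hochberg adjustment over 19997 genes with a mean of 5 counts or more. Errors of log2 differences are standard errors of that fit. CPM divides counts by the library total times its TMM factor, and CPM per kb divides further by the canonical transcript length in GENCODE 44, in which 56104 of 60279 identifiers were found. DESeq2 1.42.0, other scalings and filters, a replicate block and leaving out each library were alternatives. The edgeR and DESeq2 scripts were tested on simulated data. Same-numbered replicates did not deviate together (correlations -0.3 to 0.216), so they were not paired. As each replicate was one transduction of one line, p-values measure the spread between such transductions.

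No group had 0 counts of NMRK2 in all libraries, so its ratios are of pooled counts with exact 95% intervals. The members and gene lists were chosen with earlier results of these data known. Genes of the wider lists were named as the largest called rise and fall per list and comparison, with a mean of at least 100 counts and no overlap between groups. Promoter windows came from RefSeq (GRCh38.p14), and other sequences from the hg38 reference.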

Additional observations from a re-analysis of the deposited data

How the results depend on the processing

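Of 99 member differences tested, 49 were called, and no called difference reversed under any alternative run. DESeq2 left 96 on the same side of the threshold and gained 3 calls, DESeq2 size factors in edgeR kept 97 and lost 2, and scaling by totals kept 92, lost 3 and gained 4. A mean of at least 10 counts, DESeq2 size factors, or fitting only the groups compared each left 1 member called in TAZ-CAMTA1 against EV. Fitting only the groups compared left 4 members called in YAP-TFE3 against TFE3, called 662 genes in CAMTA1 against EVsub (366 in the joint fit) and 2 in TFE3 against EV (7 in the joint fit), where DESeq2 called 15 (12 higher and 3 lower). With the replicate block, which the labels' numbers allow but the data did not bear out, TFE3 against EV gave 5 genes, QPRT lost its calls in YAP-TFE3 against YAP5SA (0.39, adjusted p = 0.0539) and TFE3 (0.39, adjusted p = 0.0527), and CD38 in YAP-TFE3 (0.59, adjusted p = 0.0215) and NMNAT2 in EVsub (0.65, adjusted p = 0.0450) gained one. The cause of these changes was not tested.

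Leaving out 1 library at a time gave 176 to 446 genes called in CAMTA1 against EVsub, 544 to 885 in TAZ-CAMTA1 against EV and 1 to 12 in TFE3 against EV. Members called ranged from 0 to 1 in TAZ-CAMTA1, 2 to 4 in EVsub and 4 to 7 in YAP5SA against EV, and from 5 to 8 in TAZ-CAMTA1 against TAZ4SA. Genes called of the wider lists ranged from 0 to 2 in CAMTA1 against EVsub, 17 to 29 in EVsub and 0 to 1 in TAZ-CAMTA1 against EV. Where an arm was left with 2 libraries, the spread came from all groups.

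Scaling by totals moved the median log2 difference of all genes from -0.03 to -0.23 in TAZ4SA and from -0.04 to -0.22 in YAP5SA against EV, with 3355 genes higher and 7317 lower against 5013 and 4835, and 3134 and 6842 against 4534 and 4325. The splits also moved in EVsub against EV (3106 and 4289 against 3956 and 3412), CAMTA1 against EVsub (222 and 169 against 252 and 114), TAZ-CAMTA1 against TAZ4SA (7486 and 3695 against 5376 and 5354), YAP-TFE3 against TFE3 (4223 and 5702 against 5089 and 4503), YAP-TFE3 against TAZ-CAMTA1 (3763 and 5094 against 4564 and 3970) and, by less than 10 percentage points, YAP-TFE3 against EV (4321 and 5536 against 5125 and 4519) and YAP5SA (6562 and 4043 against 5618 and 4867). NMRK2 and NMNAT3 rest on few counts outside YAP-TFE3, which limits their ratios and differences most.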
